A study of Homo sapiens with 8 samples.

Results

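The casein kinase and VRK guides were the 35 sgRNAs of the screen library whose target symbol began with CSNK, VRK1 to VRK3, TTBK1 or TTBK2. They were picked by symbol out of 10429 sgRNAs in all, with earlier results of these data known. The library held 9929 sgRNAs against 1420 genes, and 500 controls. The 35 fell on 5 genes with 7 sgRNAs each. These were *CSNK1A1*, *CSNK1D* and *CSNK1E* of the CK1 family, *VRK2* of the related VRK family, and *CSNK2A1* of CK2. No other symbol matched, so the CK1 gamma kinases, VRK1, VRK3, the TTBK kinases and the second catalytic subunit of CK2 were not analysed here.

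The screen was run in COV362 cells, an established line of high-grade serous ovarian cancer, in a chemo-resistant derivative made by continued platinum treatment. The library aimed at proteins with known small-molecule inhibitors. All cells carried Cas9 and received the sgRNA library by viral transduction, with puromycin selection. The labels give their genotype as WT, and no untransduced or unsorted cells were analysed here. After culture, the cells were fixed, stained inside for the arginine methyltransferase PRMT5 and sorted into those with the most PRMT5 (PRMT5hi) and those with the least (PRMT5lo), with 4 libraries each. The 4 cultures were split from a single transduced pool, so their spread is that between cultures and PCRs of the same edited cells. The sorts asked which gene disruptions go with high or low PRMT5. Counted from the deposited variances, 16166859 reads lay behind PRMT5hi and 19117396 behind PRMT5lo. Each value below is the mean over the 4 libraries of a population in CPM, the sgRNA's reads scaled to a common library total, as the authors deposited it. Values of single libraries were not analysed here. The deposited columns are named only a and b. They were read as PRMT5hi and PRMT5lo from the legend of the screen plot, whose sign the methods text turns around, so every direction below rests on that reading.

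Casein kinases took their name from the milk protein on which their activity was first measured, and the name joins unrelated enzymes. CK1 kinases prefer serines and threonines near a residue that already carries a phosphate. CK1 alpha, encoded by *CSNK1A1*, primes beta-catenin for phosphorylation by GSK3 and so for its destruction, which holds Wnt signaling down. CK1 delta and CK1 epsilon, encoded by *CSNK1D* and *CSNK1E*, are close relatives that phosphorylate the period proteins of the circadian clock. VRK2 is a kinase of the CK1 group. CK2 is a constitutively active kinase of a different group, nearer to the cyclin-dependent kinases, and *CSNK2A1* encodes its main catalytic subunit, which phosphorylates very many proteins and is needed for growth in many cell lines.

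In the RefSeq annotation of GRCh38.p14, *CSNK1A1* lies on chromosome 5 from 149492982 to 149551439 and *CSNK1D* on chromosome 17 from 82239019 to 82273750. *CSNK1E* lies on chromosome 22 from 38290691 to 38318084, inside a longer readthrough gene with *TPTEP2*. *VRK2* lies on chromosome 2 from 57907592 to 58159920, and *CSNK2A1* on chromosome 20 from 472498 to 543790. The sgRNAs are known here by a gene and a number from 1 to 7, which gives no position or rank. Their sequences were not analysed here, so the exon that each one cuts, and cuts at related genes or gene copies elsewhere, were not examined.

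No casein kinase or VRK gene was called in either population. The abundance of their sgRNAs in both populations varied more widely. *CSNK2A1* sgRNAs averaged 34.5 CPM in PRMT5hi and 37.4 CPM in PRMT5lo, and *VRK2* sgRNAs 115 CPM and 114 CPM. Those against the CK1 genes lay between, at 69.5 and 73.8 CPM for *CSNK1A1*, 91.3 and 93.6 CPM for *CSNK1D* and 95.7 and 95.7 CPM for *CSNK1E*. For comparison, the median targeting sgRNA stood at 85.0 CPM in PRMT5hi and 84.9 CPM in PRMT5lo. A median is not the same measure as the gene means above, so it places none of these genes above or below the typical gene.

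For abundance, log2(CPM + 1) was averaged over PRMT5hi and PRMT5lo and then over the 7 sgRNAs of a gene. *CSNK2A1* stood at 4.56 (SD 1.42 over sgRNAs), which ranked 21 from the lowest of the 1420 genes. That was 3.56-fold below the median gene and 4.96-fold below the mean of the control sgRNAs (6.87, SD 0.75). *CSNK1A1* stood at 6.05 (SD 0.70, rank 302), *CSNK1E* at 6.15 (SD 1.30, rank 404), *CSNK1D* at 6.41 (SD 0.66, rank 749) and *VRK2* at 6.55 (SD 1.04, rank 951). The sgRNAs of the last 4 genes overlapped widely in abundance, and the order of these 4 means was not tested. Gene lists, chosen with earlier results of these data known, served as a yardstick. A list of 22 broadly essential genes had a median of 5.02, and 8 of the 22 lay below *CSNK2A1*. A list of 20 brain neurotransmitter receptors had a median of 6.39, with no gene below *CSNK2A1*. The plasmid library and cells at the start of culture were not analysed here. Dropout in culture and uneven representation at the start therefore cannot be told apart, and these ranks carry no test.

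An sgRNA was counted as low where its abundance fell under the 5th percentile of the control sgRNAs, which corresponds to 46.3 CPM. This mark was chosen after the values were seen. Of the 35 members 12 (34.3%) were low, beside 17.6% of all targeting sgRNAs, 68.8% of those against the broadly essential list and 12.9% of those against the brain receptors. By gene, 5 of 7 were low for *CSNK2A1*, 3 for *CSNK1E*, 2 for *CSNK1A1* and 1 each for *CSNK1D* and *VRK2*. The members nearest to the mark were CSNK1D_6 just under it, at 45.7 CPM over both populations, and VRK2_6 just over it, at 49.0 CPM. At least 5 low sgRNAs were found for 40 genes (2.82%), 14 of them in the broadly essential list.

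For *CSNK2A1*, the CK2 catalytic subunit, the lowest sgRNA was CSNK2A1_1, with 5.18 CPM in PRMT5hi and 7.26 CPM in PRMT5lo. CSNK2A1_4 had 14.0 and 8.63 CPM, CSNK2A1_2 had 13.9 and 14.2 CPM, and CSNK2A1_5 had 13.2 and 15.2 CPM. CSNK2A1_7 had 29.7 and 25.1 CPM. None of the 500 control sgRNAs was as low as the first 4 of these, and 3 were lower than CSNK2A1_7. The other two stood well above, CSNK2A1_3 at 54.2 and 68.7 CPM and CSNK2A1_6 at 112 and 122.5 CPM. From lowest to highest the sgRNAs of this gene spanned an 18.8-fold range of mean CPM, beside a median of 4.29-fold over all genes, and their SD of abundance ranked 51 from the largest. The largest step between neighbours, 2.24-fold, separated the 5 low sgRNAs from the other 2. CSNK2A1_6 stood near the middle of the controls, of which 230 were lower, so the 7 sgRNAs of *CSNK2A1* were not alike in abundance. Even the lowest, CSNK2A1_1, rested on about 83.9 reads over the PRMT5hi libraries and 138 over the PRMT5lo libraries.

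*CSNK1E* showed a split of another kind. Its sgRNAs CSNK1E_1, CSNK1E_3 and CSNK1E_5 stood at 25.9, 24.3 and 28.4 CPM in PRMT5hi and at 21.4, 29.3 and 33.5 CPM in PRMT5lo. CSNK1E_4 had 93.1 and 106 CPM, CSNK1E_7 had 138 and 122 CPM, CSNK1E_6 had 173 and 145 CPM and CSNK1E_2 had 187 and 212 CPM. No sgRNA fell between the groups of 3 and 4, whose edges were 3.23-fold apart. This was the largest step within any of the 5 genes, and the SD of abundance ranked 84 from the largest. Over the 4 upper sgRNAs mean CPM was 147, and over the 3 lower ones 27.1. The gene mean of *CSNK1E* fell in this gap, and its median over sgRNAs ranked 1004 from the lowest where its mean ranked 404.

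Its closest relative, *CSNK1D*, had no such gap. CSNK1D_6 was the lowest, with 47.5 CPM in PRMT5hi and 43.9 CPM in PRMT5lo, followed by CSNK1D_3 with 51.8 and 55.8 CPM. CSNK1D_2 had 67.5 and 81.4 CPM, CSNK1D_5 had 82.3 and 64.4 CPM and CSNK1D_1 had 119 and 105 CPM. CSNK1D_4 had 110.5 and 127 CPM and CSNK1D_7 had 160 and 178 CPM. The range was 3.70-fold, below the median of all genes.

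*CSNK1A1*, the CK1 alpha gene, had 2 low sgRNAs, CSNK1A1_1 with 28.6 CPM in PRMT5hi and 44.9 CPM in PRMT5lo, and CSNK1A1_5 with 36.7 and 24.1 CPM. The remaining 5 lay close together, from 68.7 to 101 CPM over both populations. They comprised CSNK1A1_7 with 76.0 and 61.3 CPM, CSNK1A1_4 with 74.1 and 81.3 CPM, CSNK1A1_2 with 87.6 and 98.4 CPM, CSNK1A1_3 with 90.7 and 97.3 CPM and CSNK1A1_6 with 92.5 and 109.6 CPM. None of the 7 reached the control mean.

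*VRK2* held the most abundant member. VRK2_7 had 278 CPM in PRMT5hi and 215 CPM in PRMT5lo, and 174 sgRNAs of the whole table were more abundant. VRK2_4 followed with 174 and 185 CPM and VRK2_1 with 119 and 111 CPM. VRK2_3 had 90.7 and 111 CPM, VRK2_2 had 73.7 and 83.1 CPM and VRK2_6 had 41.9 and 56.1 CPM. VRK2_5 was the lowest, with 24.7 and 35.2 CPM, which left an 8.24-fold range in steps of at most 1.64-fold.

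These levels recurred in both populations. Over the 35 sgRNAs log2(CPM + 1) in PRMT5hi and PRMT5lo had a Pearson r of 0.972, and over all sgRNAs 0.952. The points share the same transduced pool and guide library, so this r is a description.

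The comparison of the populations used the log2 ratio of CPM + 1 in PRMT5lo over CPM + 1 in PRMT5hi, so a positive value marks an sgRNA more abundant in PRMT5lo cells. The ratios of a gene's sgRNAs were averaged. Their one-sided p-values, recomputed in the manner of CB2, entered Fisher's method. Calling a gene took a one-sided p below 0.01 together with a mean beyond 0.25 on the same side. By this rule 0 of the 5 genes were called. With a one-sided p below 0.05 as the only condition the count was 0 as well. The share of all genes meeting that condition was not counted, so this second count has no background beside it. limma, with a two-sided adjusted p below 0.05 and no limit on the mean, also called 0. Of all 1420 genes it called only 2, so 0 of 5 is close to that background. limma took the sgRNAs of a gene as observations, which are not replicates of the populations. By the rule with Fisher's method, 0.704% of all 1420 genes were called toward PRMT5lo and 0.845% toward PRMT5hi. A set of 5 genes with no call is thus close to the background of that rule.

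*VRK2* had the largest mean of the 5, 0.14 (SD 0.30 over sgRNAs, SE 0.12 from the spread between libraries), a 1.10-fold higher abundance in PRMT5lo cells. Of its 7 sgRNAs 5 were above 0. The p from Fisher's method was 0.107 toward PRMT5lo (adjusted p = 0.762 over all genes), and 287 genes had a larger mean in either direction. *CSNK1A1* had a mean of 0.054 (SD 0.39, SE 0.12), with 5 of 7 above 0 and an adjusted p of 0.993 toward PRMT5lo. *CSNK2A1* had a mean of 0.033 (SD 0.37, SE 0.19), also with 5 of 7 above 0. *CSNK1E* had a mean of 0.025 (SD 0.24, SE 0.095) and *CSNK1D* of 0.011 (SD 0.23, SE 0.096), each with 4 of 7 above 0. In either direction no adjusted p of these genes was below 0.762. No difference between the populations was thus detected for any of the 5, and each mean except that of *VRK2* was smaller than its SE.

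All 5 means lay above 0, as did 689 of the 1420. The mean of the control sgRNAs was itself 0.019, and *CSNK1D* lay below it. The 95% intervals from the spread between libraries all held 0, from -0.18 to 0.20 for *CSNK1D*, -0.16 to 0.21 for *CSNK1E*, -0.19 to 0.30 for *CSNK1A1*, -0.090 to 0.37 for *VRK2* and -0.33 to 0.40 for *CSNK2A1*. Those of *CSNK1D* and *CSNK1E* lay within the limit of 0.25 on both sides. The other 3 reached past it, *CSNK2A1* on both sides, so for these genes a mean of the size used for calling was not excluded at this precision. The intervals of *CSNK1E*, *CSNK1D* and *VRK2* may be too narrow, because some sgRNAs held only the variance of read counting. These were CSNK1E_2, CSNK1E_3, CSNK1E_4, CSNK1D_3 and VRK2_3 in PRMT5lo, and CSNK1E_6, CSNK1D_6 and VRK2_4 in PRMT5hi. *CSNK1D* and *CSNK1E* differed by -0.014 (SE 0.13), and *VRK2* and *CSNK1D* by 0.13 (SE 0.15), which is within the error.

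Single sgRNAs were tested by the difference of their read fractions over its standard error, two-sided, with Benjamini-Hochberg adjustment over the 10427 sgRNAs with reads. Among the 35 members 0 passed an adjusted p of 0.05, where 0.048% of all sgRNAs did. At an unadjusted p under 0.05 the count was also 0, where 6.63% of all sgRNAs passed. The members nearest to it were both against *VRK2* and pointed in opposite directions. VRK2_3 had a ratio of 0.29 (SE 0.10) and VRK2_7 of -0.37 (SE 0.13). Their unadjusted p-values were 0.0515 and 0.0531, and after adjustment both stood at 0.760. For VRK2_3 the variance in PRMT5lo was the smallest that the method allows, that of read counting alone. For VRK2_7, which had the most reads of the members, the 95% interval of the log2 ratio ran from -0.72 to -0.015. The test of VRK2_7 used read fractions and its interval the log2 ratio, so the interval left out 0 although the unadjusted p was 0.0531. In its abundance class 4.60% of the sgRNAs had a ratio at least as large in size as that of VRK2_7.

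The ratios of the members ran from -0.64 to 0.63, with 23 above 0 and 12 below and a median of 0.13. Over all sgRNAs 49.9% were above 0, and the median was -0.0010. The sgRNAs of a gene share their target, so these signs are not independent, and they carry no test. The 3 ratios beyond 0.5 in size all belonged to low sgRNAs. *CSNK1A1* held a pair of opposite sign, CSNK1A1_1 with 0.63 (SE 0.38, adjusted p = 0.910) and CSNK1A1_5 with -0.59 (SE 0.43, adjusted p = 0.903). CSNK2A1_4 had -0.64 (SE 0.52, adjusted p = 0.914), which rests on a step from 14.0 to 8.63 CPM. When all sgRNAs were divided into 20 classes by abundance, the SD of the ratio fell from 0.55 in the lowest class to 0.18 in the highest. In their own classes 10.4%, 13.1% and 22.8% of sgRNAs had ratios at least as large as those of CSNK1A1_1, CSNK1A1_5 and CSNK2A1_4.

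Within *CSNK2A1*, the 5 low sgRNAs had a mean ratio of -0.047 and the 2 others of 0.23, CSNK2A1_3 with 0.34 (SE 0.37) and CSNK2A1_6 with 0.13 (SE 0.33). Of the low ones, CSNK2A1_1 had 0.42 (SE 0.61), CSNK2A1_5 had 0.19 (SE 0.53), CSNK2A1_2 had 0.020 (SE 0.64) and CSNK2A1_7 had -0.23 (SE 0.35). Apart from CSNK2A1_4, each ratio was smaller than its own error. A difference between the populations was not detectable for *CSNK2A1* at this precision, which was the poorest of the 5 genes.

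Within *CSNK1E*, the 3 low sgRNAs had a mean ratio of 0.076 and the 4 upper ones of -0.014. The signs crossed both sets. CSNK1E_3 (0.26, SE 0.37), CSNK1E_5 (0.23, SE 0.23), CSNK1E_4 (0.19, SE 0.17) and CSNK1E_2 (0.18, SE 0.097) were above 0. CSNK1E_1 (-0.26, SE 0.35), CSNK1E_6 (-0.25, SE 0.17) and CSNK1E_7 (-0.17, SE 0.24) were below. With the 4 sgRNAs left out that stood at the smallest variance in either population, the mean of this gene turned to -0.069, still without a call.

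The ratios of the *CSNK1D* sgRNAs ran from -0.35 (CSNK1D_5, SE 0.36) to 0.27 (CSNK1D_2, SE 0.22). For *VRK2*, the 2 largest positive ratios came from its least abundant sgRNAs, VRK2_5 with 0.50 (SE 0.59) and VRK2_6 with 0.41 (SE 0.46). Over the 35 members the error of a ratio ran from 0.097 to 0.64 with a median of 0.30. Between libraries the variance of a member exceeded that of read counting by a median factor of 14.4 in PRMT5hi and 18.5 in PRMT5lo, beside 18.2 and 16.9 over all sgRNAs in the table. Spread between libraries beyond read counting thus made up most of the typical member's variance. For 3 members in PRMT5hi and 5 in PRMT5lo, the deposited variance was that of counting alone.

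Wnt and Hedgehog signaling, in which CK1 kinases act, were represented by 10 other genes. The Wnt list held *PORCN*, which acylates Wnt ligands, the inhibitors *DKK1* and *SOST*, the tankyrase *TNKS2*, the kinase *TNIK*, and *GSK3A* and *GSK3B*, which act on beta-catenin after CK1 alpha. The Hedgehog list held the ligand *SHH*, the receptor *SMO*, the protein kinase A subunit *PRKACA* and again *GSK3B*. None of the 10 was called in either direction by Fisher's method. Of all 1420 genes 0.704% were called toward PRMT5lo and 0.845% toward PRMT5hi, so 10 genes with no call are close to the background. The median of their means was -0.068, with 3 above 0 and 7 below, beside a median of -0.0033 over all genes. *GSK3A* came nearest, with a mean of 0.26 (SD 0.39) toward PRMT5lo and a one-sided p of 0.0128 from Fisher's method, which misses the limit (adjusted p = 0.339). Next in the Wnt list was *SOST* with 0.11 (SD 0.25). The Hedgehog genes with the largest means were *SHH* with -0.13 (SD 0.32) and *SMO* with 0.12 (SD 0.34). The abundance of the 10 genes, from 5.58 to 6.81, stayed above that of *CSNK2A1*.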

How the data were processed

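The authors mapped single-end reads of sgRNAs amplified from genomic DNA to the library sequences, counted them and compared the populations with CB2. FastQC and hg38 are named in the submitters' processing notes; for all steps, versions and mapper were not given in the sources used here. Deposited CPM values, scaled to the mapped reads of a library, are means over the 4 libraries of a population. The fraction columns, deposited with a variance per sgRNA, are CB2's estimates over the same libraries. The authors' fold changes and p-values were not used. No column holds a single library, so neither a count test nor a replicate check could be made.

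Ratios, sgRNA tests (Welch degrees of freedom), Fisher's method and Benjamini-Hochberg adjustment were computed over the whole table with Python 3.11.15, NumPy 2.4.6, pandas 2.3.3 and SciPy 1.17.1, with a pseudocount of 1 CPM and no minimum, and tested on simulated data. limma 3.58.1 in R 4.3.3, with sgRNAs as observations, was an alternative. The SE of a log2 ratio was propagated from the deposited variances. Depth was taken from sgRNAs at the smallest variance CB2 allows, which depends on reads alone: 1258 in PRMT5hi and 1837 in PRMT5lo. Reads were amplified by PCR, and no molecular identifiers are described, so read numbers cover counting error only. sgRNAs of a gene are not biological replicates, and p-values measure the spread between these libraries, which may be technical.

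All members of the symbol rule and all their sgRNAs are named; of the pathway lists, called genes or the 2 with the largest means. The members and lists were chosen with earlier results of these data known. A further short list chosen with them is not reported here.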

Additional observations from a re-analysis of the deposited data

How the results depend on the processing

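None of the 5 genes was called with Stouffer's method, CPM + 5 or CPM + 10, at least 20 CPM, the median over sgRNAs, centring on the controls, limma with sgRNAs in place of replicates (adjusted p of 0.885 or more), a variance no smaller than that of the abundance class, or stricter p limits, and none after leaving out any sgRNA. Over these settings the number of genes called in the whole table was 22 as reported, 30 with Stouffer's method, 13 with CPM + 10, 7 at a p limit of 0.001 or with the class variance, 3 at an adjusted p limit of 0.05 or 0.10 and 2 with limma. Without sgRNAs at the smallest variance, an alternative chosen after seeing the data, 15 genes were called and the mean of *CSNK1E* turned to -0.069 over its 3 remaining sgRNAs. When single sgRNAs were left out, means lay between -0.042 and 0.16 for *CSNK1A1*, from -0.032 to 0.071 for *CSNK1D*, from -0.015 to 0.073 for *CSNK1E*, from 0.084 to 0.23 for *VRK2* and from -0.031 to 0.15 for *CSNK2A1*, so the sign was kept for *VRK2* alone. The one-sided p of *VRK2* from Fisher's method, 0.107 with all its sgRNAs, ran from 0.0542 without VRK2_7 to 0.335 without VRK2_3. With the class variance it was 0.260. No sgRNA of the members passed with a normal distribution, the class variance or a minimum of 20 CPM. The main test passed only 0.048% of all sgRNAs, and the shares under these alternatives were not counted. The low abundance of *CSNK2A1* held throughout, with a rank from the lowest of 19 in PRMT5hi, 23 in PRMT5lo, 19 with CPM + 5 and 5 by the median, and of 9 to 28 with each sgRNA left out. Leaving out sgRNAs moved abundance from 4.17 to 4.85 for *CSNK2A1*, 5.95 to 6.23 for *CSNK1A1*, 6.25 to 6.56 for *CSNK1D*, 5.90 to 6.40 for *CSNK1E* and 6.31 to 6.82 for *VRK2*. With the low mark at the 1st or 10th percentile of the controls, also chosen after seeing the data, 10 or 14 members were low, and under 20 CPM 4 were, all against *CSNK2A1*. No paired analysis was possible because the columns hold each population's summary and not its replicates, and replicates could not be left out for the same reason. Spread between libraries and the low reads of *CSNK2A1* sgRNAs limit these results. The alternative restricted to sgRNAs with a single genomic match was not run, since sgRNA sequences were not used here.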
